A study of Mus musculus with 9 samples.

Results

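The cell cycle and mitosis genes described here are 49 mouse genes whose products carry a cell through G1, DNA replication and division. They were found by symbol among the probe sets that name a single gene, and where a gene had several of them the brightest over the 9 arrays was kept. Of the 49 genes, 48 were found among the 18193 genes named in this way, and Ccnb1, which encodes cyclin B1, had no probe set naming it alone. A gene was tested when its mean signal reached 5.72 on the log2 scale, a level that 30% of the genes did not reach, which left 46 of these genes among 12735 tested. Tyms and Cenpf lay below that level at 5.26 and 5.43, and the nearest genes above it were Ncapg at 5.74, Tpx2 at 5.78 and Aurkb at 5.83. Melk is described apart from the other 45 tested.

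The cells were 3T3-L1, a clonal line of mouse preadipocytes that can be turned into fat cells in a dish. Once mature, they received lentivirus carrying hairpin 2 against Ebf1, hairpin 1 against Ebf1, or a scrambled control hairpin, with 3 arrays in each of the 3 groups. Every group, the scrambled one included, passed through 3 to 4 rounds of viral infection and then stayed in 5 µg/ml puromycin for 8 days or longer, per the labels' protocols. RNA was amplified with the NuGEN Ovation WTA Pico kit and biotin-labelled for Affymetrix arrays. The hairpin sequences and the promoter that drives them are not given in the sources used here. The arrays are titled as repeats with no word on separate cultures, so a p-value covers array-to-array spread that may be technical only.

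A dividing cell activates D-type cyclins and then E2F transcription factors, which switch on the genes of DNA replication. A later wave of genes, held down in resting cells by the DREAM repressor complex and raised towards mitosis by the MuvB complex with Mybl2 and Foxm1, supplies cyclins A and B, the mitotic kinases, the spindle and the machinery of cytokinesis. Preadipocytes of this line divide in culture and during the early days of differentiation, whereas mature adipocytes have mostly left the cell cycle, so most of these genes are usually low in them.

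Ebf1, the targeted transcription factor, averaged 8.94 ± 0.24 with hairpin 2, 9.44 ± 0.11 with hairpin 1 and 10.19 ± 0.10 with the scrambled hairpin (log2 signal, SD, n = 3 each). It was 2.38-fold lower with hairpin 2 and 1.69-fold lower with hairpin 1 (limma, Benjamini-Hochberg adjusted p = 2.98e-07 and 0.000102). The adipocyte markers Adipoq, Fabp4 and Lpl lay near the top of the signal range in every group, and the mean level of 13 adipocyte markers was 13.10 to 13.12 with hairpin 2, 13.07 to 13.17 with hairpin 1 and 13.08 to 13.16 with the scrambled hairpin. Of these 13, 2 were higher and 2 lower with hairpin 2, Pparg by -0.56 the most, and 1 higher and 1 lower with hairpin 1. Among all tested genes, 21.5% were higher and 13.3% lower with hairpin 2, and 23.7% and 9.23% with hairpin 1. Markers of preadipocytes and fibroblasts were different. Their mean level over 14 genes was 10.89 to 10.94 with hairpin 2, 10.75 to 10.88 with hairpin 1 and 10.24 to 10.35 with the scrambled hairpin, and of 13 tested 9 were higher and 1 lower with hairpin 2, and 10 higher and 1 lower with hairpin 1. Among them Col1a1, the collagen I chain, rose by 1.98 and 1.69 log2 units and Thy1, a fibroblast surface protein, by 1.96 and 0.92 (hairpin 2 and hairpin 1). The lowest change in any of these 13 markers was -0.83 for hairpin 2, and for hairpin 1 it was -0.29. The mean level of 10 leukocyte and macrophage markers was 6.28 to 6.55 with hairpin 2, 6.25 to 6.40 with hairpin 1 and 6.38 to 6.49 with the scrambled hairpin, with Ptprc, Itgam, Adgre1 and Tyrobp below the tested level. Of 6 tested, Cd68 was higher by 1.18 with hairpin 2, and Laptm5 fell by 1.82 with hairpin 2 and by 1.22 with hairpin 1. The part of these markers in the results below was not tested.

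Most of the changes among the cell cycle genes were increases of less than 2-fold, and they were spread over every phase. Without Melk, 24 of 45 tested genes rose and 1 fell with hairpin 2, against a background of 21.5% of all 12735 tested genes higher and 13.3% lower. With hairpin 1, 27 rose and 1 fell, against a background of 23.7% higher and 9.23% lower. The gene that fell was Ccnd2 in each case. The median change was 0.29 log2 units with hairpin 2 and 0.38 with hairpin 1, where the median of all tested genes was 0.02 and 0.07. Both comparisons use the same 3 scrambled arrays, so their values stand side by side and do not support each other. In RNA from whole cultures, more cells in cycle and more cycle RNA per cell cannot be told apart.

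The tested level bears on these counts. Bub1, Aurkb, Cenpe, Kif20a and Tpx2 averaged below it on the scrambled arrays and passed only through the hairpin arrays, which favours a difference. Over the 40 genes whose scrambled mean was above it, a subset formed after the values were seen, 21 were higher and 1 lower with hairpin 2, and 22 higher and 1 lower with hairpin 1, with medians of 0.30 and 0.33. With no such limit, over all 47 genes measured besides Melk, 23 rose and 1 fell with hairpin 2 (background 14.7% higher and 9.1% lower of 18193 genes). With hairpin 1 the same count was 27 and 1 (background 15.9% and 6.26%).

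Every scrambled array was low for these genes. The median deviation of the 45 genes from their own means was 0.09, -0.03 and 0.04 on the hairpin 2 arrays, 0.19, 0.18 and 0.15 on those of hairpin 1, and -0.26, -0.22 and -0.18 on the scrambled arrays. The groups did not overlap on this summary, and the hairpin 2 arrays lay between the others. The 45 genes include the 5 that passed the tested level only through the hairpin arrays. Over all tested genes the deviation was -0.0007, 0.0094 and -0.009 with hairpin 2, and -0.0138, 0.086 and 0.0513 with hairpin 1. It was -0.0257, -0.0398 and -0.0155 on the scrambled arrays, so there too every scrambled array was the lower, by less.

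**Figure D1:**
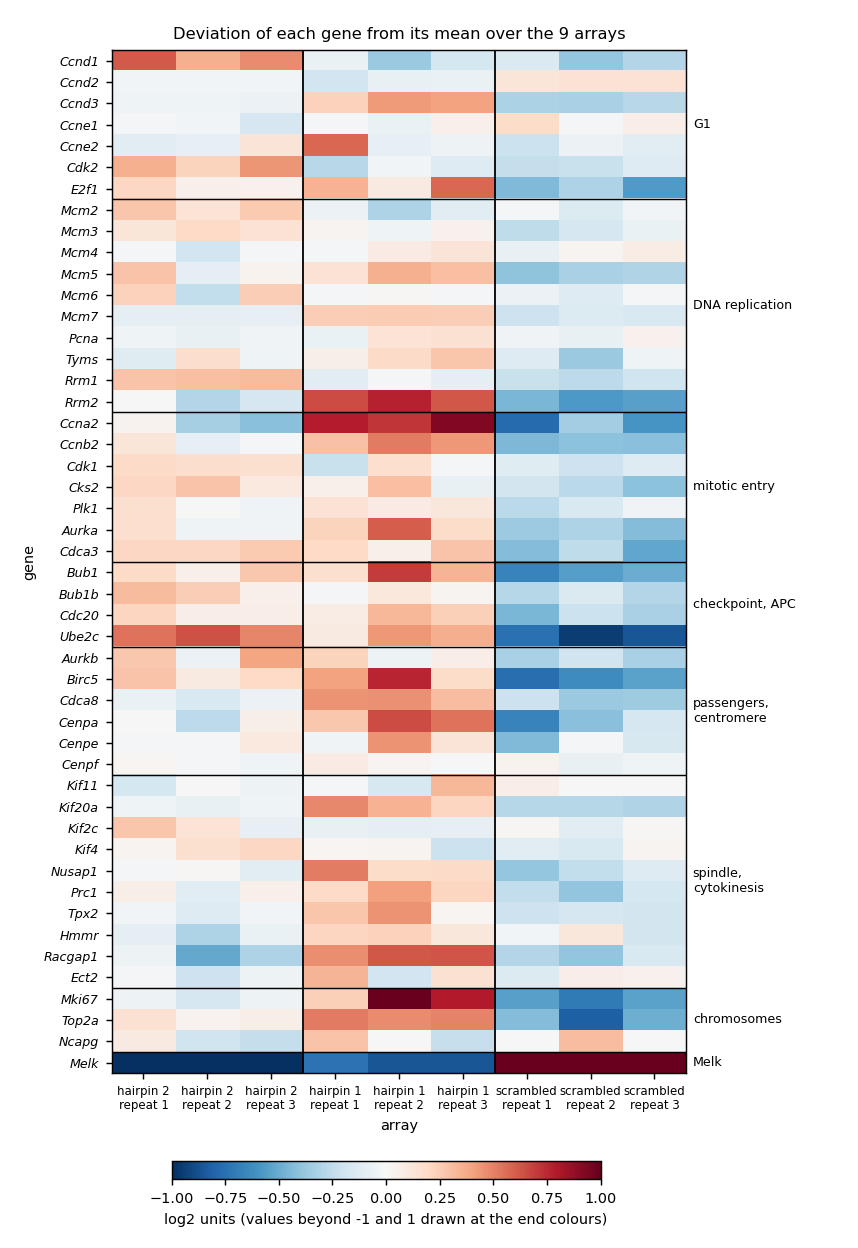
Each cell is the log2 deviation of 1 measured gene (rows, by role, Melk last) from its own mean over the 9 arrays (columns: hairpin 2, hairpin 1, scrambled, 3 arrays each), red above and blue below, with values beyond -1 and 1 drawn at the end colours. Scrambled arrays are mostly blue down to Melk, whose row runs the other way.

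Melk, a serine/threonine kinase of the AMPK-related family that is abundant in dividing cells, fell where most of the other genes rose or did not pass, and by a far larger amount. Its probe set read 5.62, 5.25 and 5.75 with hairpin 2, 6.61, 6.49 and 6.49 with hairpin 1, and 9.95, 9.99 and 9.97 with the scrambled hairpin. The 3 groups stood apart on every array, with the scrambled arrays close together. Melk fell by 4.43 log2 units with hairpin 2, which is 21.6-fold (SE 0.111, limma adjusted p = 5.38e-14), and it fell by 3.44 with hairpin 1, which is 10.9-fold (adjusted p = 5.83e-12). From the largest fall among 12735 tested genes, it ranked 15 with hairpin 2 and 6 with hairpin 1. The hairpin 2 arrays lay around the 5.72 limit for testing, near the floor of the array, where fold changes are compressed. This is the single probe set that names Melk alone, so no other one on the array bears on its fall.

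Promoter sequences were set beside these values, because the phase at which a cell cycle gene is switched on is classically read from short promoter elements. The RefSeq table of build GRCm38.p6 gives 300 bases per promoter, 250 before and 50 after the annotated start. Promoters of a single chromosome were left out of the search, and the first-listed start of each gene was used. The promoters searched covered 41 of the 49 genes, 4 of which had several starts. Not covered were Ccna2, Ccne2, Ccnd1, Ccnd2, Kif20a, Tpx2, Mcm4 and Aurkb. The letters were searched on both strands. The cell cycle homology region, or CHR, was searched as TTTGAA, with a second form written as TTTAAA. The NF-Y box was searched as CCAAT and the E2F site as TTCCCGC, with a second form written as TTGGCGC and one more form written as TTCGCGC. Matches can overlap, since the second E2F form shares letters with the NF-Y box read on the other strand, and the second CHR form reads the same on both strands. Matches are in capitals below, and capitals reading ATTGG or else TTCAAA are matches on the other strand. Melk is shown as the gene that fell. Ube2c, Ccnb2 and Top2a are shown as mitotic genes that rose with each hairpin on the probe set used. Rrm2 is shown as an S phase gene that rose with each on its probe set. Their windows are Melk chr4:44300667-44300966 (plus strand), Ube2c chr2:164769679-164769978 (plus), Ccnb2 chr9:70421505-70421804 (minus), Top2a chr11:99024140-99024439 (minus) and Rrm2 chr12:24708004-24708303 (plus).
Melk: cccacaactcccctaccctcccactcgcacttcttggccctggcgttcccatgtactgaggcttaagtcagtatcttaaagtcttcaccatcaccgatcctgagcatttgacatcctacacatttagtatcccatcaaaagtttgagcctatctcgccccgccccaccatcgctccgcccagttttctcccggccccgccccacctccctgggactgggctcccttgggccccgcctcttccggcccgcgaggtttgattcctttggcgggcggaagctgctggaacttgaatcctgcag
Ube2c: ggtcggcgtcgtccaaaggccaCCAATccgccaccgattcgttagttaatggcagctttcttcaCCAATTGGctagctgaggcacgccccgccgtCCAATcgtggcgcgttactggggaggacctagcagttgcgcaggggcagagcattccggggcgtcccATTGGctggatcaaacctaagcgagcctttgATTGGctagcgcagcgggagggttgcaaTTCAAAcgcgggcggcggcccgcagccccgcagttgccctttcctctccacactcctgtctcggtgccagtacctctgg
Ccnb2: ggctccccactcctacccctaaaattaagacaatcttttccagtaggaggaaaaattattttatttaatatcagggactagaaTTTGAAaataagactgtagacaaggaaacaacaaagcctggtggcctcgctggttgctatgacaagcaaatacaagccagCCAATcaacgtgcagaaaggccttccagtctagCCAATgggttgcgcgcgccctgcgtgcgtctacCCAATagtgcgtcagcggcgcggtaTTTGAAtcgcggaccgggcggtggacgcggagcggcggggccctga
Top2a: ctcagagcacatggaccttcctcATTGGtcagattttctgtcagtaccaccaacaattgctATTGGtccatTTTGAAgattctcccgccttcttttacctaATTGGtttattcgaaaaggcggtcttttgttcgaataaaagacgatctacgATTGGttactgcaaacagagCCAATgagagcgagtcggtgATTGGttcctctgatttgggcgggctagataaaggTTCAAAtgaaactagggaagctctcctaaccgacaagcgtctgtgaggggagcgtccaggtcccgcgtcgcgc
Rrm2: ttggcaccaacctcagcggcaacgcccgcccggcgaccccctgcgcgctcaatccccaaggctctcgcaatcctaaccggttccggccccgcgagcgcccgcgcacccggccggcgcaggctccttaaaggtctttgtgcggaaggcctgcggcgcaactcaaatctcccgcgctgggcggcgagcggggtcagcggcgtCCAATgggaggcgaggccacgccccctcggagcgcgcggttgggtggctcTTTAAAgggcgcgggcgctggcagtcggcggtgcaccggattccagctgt

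The Ube2c window holds 6 CCAAT matches and 1 TTTGAA, the Ccnb2 window 3 and 2, the Top2a window 6 and 2, and the Rrm2 window 1 CCAAT and 1 TTTAAA. Over the 41 windows CCAAT was present in 80.5% (exact 95% interval 65.1 to 91.2) and either CHR form in 68.3% (51.9 to 81.9). Among all 27025 promoters searched, 1 per gene, those shares were 37.9% and 27.8%. Both elements together occurred in 61.0% of the 41 windows, against 10.9% of all promoters, and an E2F form in 29.3%, against 8.21%. No match was found in Ccnd3, E2f1, Melk, Nusap1 and Tyms, or 12.2% of the windows, where 41.0% of all promoters had none. An absent match says only that these letters are not in this window. The window follows the first-listed start, which may not be the main start of a gene. The 41 windows were also richer in G and C, with a median of 57.7% against 52.7%, and the intervals cover counting error only.

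The motif groups did not order the changes in the same way for each hairpin. With hairpin 2 the median change was 0.31 log2 units for the 26 tested genes with a CHR form and 0.32 for the 11 without. With hairpin 1 it was 0.55 and 0.38. For the 11 genes with an E2F form and the 26 without, the medians were 0.32 and 0.32 with hairpin 2, and 0.16 and 0.57 with hairpin 1. These are descriptions of small groups and were not tested.

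Among the G1 genes, 4 of 7 were higher and 1 lower with hairpin 2 (background 21.5% and 13.3%). With hairpin 1, 2 were higher and 1 lower, near the background shares of 23.7% and 9.23%. The 3 D-type cyclins, the partners of Cdk4 and Cdk6, each behaved differently. Ccnd1 read 10.44, 10.18 and 10.30 with hairpin 2, 9.76, 9.45 and 9.65 with hairpin 1, and 9.68, 9.44 and 9.53 with the scrambled hairpin. Only the hairpin 2 arrays stood above the scrambled ones. Ccnd1 rose by 0.76 with hairpin 2 (1.69-fold, SE 0.102, limma adjusted p = 2.25e-05) and its change with hairpin 1 was 0.07 (adjusted p = 0.651). All 3 probe sets of Ccnd1 were higher with hairpin 2, by 0.76, 0.84 and 0.98. The one that gave 0.98 also rose with hairpin 1, by 0.34 (adjusted p = 0.024). Ccnd3 read 11.54, 11.54 and 11.52 with hairpin 2, 11.81, 12.00 and 11.99 with hairpin 1, and 11.26, 11.26 and 11.30 with the scrambled hairpin. The 3 groups did not overlap, with hairpin 1 highest. Ccnd3 rose by 0.26 with hairpin 2 (adjusted p = 0.00593) and by 0.66 with hairpin 1 (adjusted p = 1.74e-06), calls that were lost when its probe sets were averaged (0.0071 and 0.19, adjusted p = 0.959 and 0.0687).

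Ccnd2, whose signal lay high on the scale, read 13.76 on each of the 3 arrays with hairpin 2, 13.59, 13.71 and 13.72 with hairpin 1, and 13.91, 13.93 and 13.93 with the scrambled hairpin. Every hairpin array was below every scrambled one. It fell by 0.16 with hairpin 2 (limma adjusted p = 0.00407, or 0.0824 without a mean-variance trend, and -0.29 with its probe sets averaged) and by 0.25 with hairpin 1 (adjusted p = 0.000149). E2f1, the transcription factor that activates replication genes, read 8.98, 8.82 and 8.81 with hairpin 2, 9.11, 8.86 and 9.34 with hairpin 1, and 8.32, 8.46 and 8.20 with the scrambled hairpin. All hairpin arrays were above all scrambled arrays. E2f1 rose by 0.54 with hairpin 2 (adjusted p = 0.0016) and by 0.78 with hairpin 1 (adjusted p = 9.54e-05). Cdk2, the S phase kinase, rose by 0.54 with hairpin 2 (adjusted p = 0.000243) and its change was 0.05 with hairpin 1. The E-type cyclins that activate Cdk2 stayed below the test's threshold in both comparisons: Ccne1 gave -0.15 and -0.09 and Ccne2 0.10 and 0.27 for hairpin 2 and hairpin 1.

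Of the 9 tested genes for replication licensing and DNA synthesis, 5 rose with hairpin 2 and 3 with hairpin 1, and none fell. The background was 21.5% higher and 13.3% lower with hairpin 2, and 23.7% and 9.23% with hairpin 1. The largest change was in Rrm2, the regulated subunit of ribonucleotide reductase, which makes deoxynucleotides in S phase. Rrm2 read 7.18, 6.90 and 7.02 with hairpin 2, 7.84, 7.95 and 7.81 with hairpin 1, and 6.73, 6.61 and 6.65 with the scrambled hairpin. The 3 groups did not overlap, and the hairpin 1 arrays were the highest. It rose by 0.37 with hairpin 2 (1.29-fold, SE 0.093, limma adjusted p = 0.00523) and by 1.21 with hairpin 1 (2.31-fold, adjusted p = 1.02e-07). The other probe sets of Rrm2 gave 0.29 and 0.40 with hairpin 2 and did not pass (adjusted p = 0.22 and 0.128). With hairpin 1 they rose by 0.55 and 0.79 (adjusted p = 0.0179 and 0.00475). Its partner subunit Rrm1 gave 0.53 with hairpin 2 (adjusted p = 4.6e-05) and 0.16 with hairpin 1 (adjusted p = 0.133), although its other probe set above the tested level rose with hairpin 1, by 0.51 (adjusted p = 0.00291).

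The MCM genes encode the 6 subunits of the replicative helicase, and their calls differed. Mcm5 read 8.91, 8.54 and 8.67 with hairpin 2, 8.77, 8.98 and 8.93 with hairpin 1, and 8.23, 8.30 and 8.33 with the scrambled hairpin. All hairpin arrays were above all scrambled arrays. It rose by 0.42 with hairpin 2 (limma adjusted p = 0.00437) and by 0.61 with hairpin 1 (adjusted p = 0.000299). Mcm2 and Mcm3 rose with hairpin 2, by 0.29 and 0.32, and gave -0.10 and 0.17 with hairpin 1. The other probe set of Mcm2 rose by 0.82 with hairpin 2 (adjusted p = 2.35e-05) and gave 0.20 with hairpin 1 (adjusted p = 0.202). Mcm7 gave 0.08 with hairpin 2 (adjusted p = 0.37) and rose by 0.41 with hairpin 1 (adjusted p = 8.84e-05), while a second probe set rose by 0.37 with hairpin 2 (adjusted p = 0.0124) and by 0.64 with hairpin 1 (adjusted p = 0.000318). Mcm4, Mcm6 and Pcna, the sliding clamp of the replication fork, passed the test with neither hairpin, with changes between -0.08 and 0.14. The thymidylate synthase gene Tyms, below the tested level, gave 0.19 with hairpin 2 (adjusted p = 0.217 with no limit on the level) and 0.36 with hairpin 1 (adjusted p = 0.0141). With hairpin 2 the Mcm2 call was lost without scrambled repeat 2, hairpin 2 repeat 1 or hairpin 2 repeat 3 (adjusted p of 0.0647 to 0.0993), and the Mcm3 call without scrambled repeat 1 (adjusted p = 0.0571). With hairpin 1 the Pcna change passed without hairpin 1 repeat 1 (adjusted p = 0.0126), and with hairpin 2 that of Mcm6 without hairpin 2 repeat 2 (adjusted p = 0.0206).

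Of the 7 tested genes of mitotic entry, 5 rose with hairpin 2 (background 21.5%) and 6 with hairpin 1 (background 23.7%). Ccna2, the cyclin of S and G2 phase, read 7.57, 7.21 and 7.12 with hairpin 2, 8.32, 8.25 and 8.46 with hairpin 1, and 6.77, 7.19 and 6.94 with the scrambled hairpin. The hairpin 1 arrays were above all others, and the hairpin 2 arrays overlapped the scrambled ones. Its change was 0.33 with hairpin 2 (limma adjusted p = 0.0528) and it rose by 1.38 with hairpin 1 (2.6-fold, SE 0.127, adjusted p = 7.1e-07). The hairpin 2 change of Ccna2 passed without scrambled repeat 2 or hairpin 2 repeat 3 (adjusted p of 0.0208 to 0.0274), with probe sets averaged (0.38, adjusted p = 0.0105), with robust eBayes (adjusted p = 0.0414) and with array quality weights (adjusted p = 0.00972). Ccnb2, a mitotic cyclin that activates Cdk1, read 6.54, 6.34 and 6.42 with hairpin 2, 6.72, 6.95 and 6.86 with hairpin 1, and 5.98, 6.01 and 6.01 with the scrambled hairpin. The 3 groups did not overlap. Ccnb2 rose by 0.44 with hairpin 2 (1.35-fold, adjusted p = 0.00108) and by 0.84 with hairpin 1 (1.79-fold, adjusted p = 3.04e-06).

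Cdk1, the kinase that drives mitosis, rose by 0.33 with hairpin 2 (limma adjusted p = 0.0129) and gave 0.13 with hairpin 1 (adjusted p = 0.32). Its small partner Cks2 rose by 0.48 and 0.38, and Cdca3, which promotes entry into mitosis, by 0.63 and 0.58 (hairpin 2 and hairpin 1). Aurka, the centrosomal Aurora kinase, rose by 0.40 and 0.71. Plk1, the polo-like kinase, gave 0.19 with hairpin 2 (adjusted p = 0.119) and rose by 0.26 with hairpin 1 (adjusted p = 0.0373). Several of these calls were lost when 1 array was left out. The Plk1 call was lost without scrambled repeat 1 or 2 or any 1 hairpin 1 array (adjusted p of 0.0611 to 0.175), and the Cks2 call with hairpin 1 without scrambled repeat 3 (0.055). With hairpin 2, the Cdk1 call was lost without scrambled repeat 2 (0.0589) and the Aurka call without hairpin 2 repeat 1 (0.0519), while Cdk1 passed with hairpin 1 without hairpin 1 repeat 1 (0.0304).

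The 4 genes of the spindle checkpoint and the anaphase-promoting complex rose with each hairpin (background 21.5% for hairpin 2 and 23.7% for hairpin 1). Ube2c, the ubiquitin-conjugating enzyme of that complex, read 8.81, 8.90 and 8.75 with hairpin 2, 8.35, 8.70 and 8.63 with hairpin 1, and 7.51, 7.32 and 7.41 with the scrambled hairpin. The groups did not overlap, and here the hairpin 2 arrays were the highest. It rose by 1.41 with hairpin 2 (2.65-fold, SE 0.103, limma adjusted p = 2.43e-08) and by 1.15 with hairpin 1 (2.21-fold, adjusted p = 5.22e-07). Bub1, a checkpoint kinase at the kinetochore, read 6.19, 6.05 and 6.27 with hairpin 2, 6.16, 6.70 and 6.34 with hairpin 1, and 5.33, 5.45 and 5.50 with the scrambled hairpin. All hairpin arrays were above all scrambled arrays, which lay below the tested level. Bub1 rose by 0.74 with hairpin 2 (adjusted p = 0.000121) and by 0.97 with hairpin 1 (adjusted p = 1.36e-05), or by 0.38 and 0.53 with its probe sets averaged. Cdc20, the activator of the complex, rose by 0.45 and 0.55, and Bub1b, which encodes the checkpoint protein BubR1, by 0.44 and 0.28 (hairpin 2 and hairpin 1). The Bub1b call with hairpin 1 was lost without scrambled repeat 1 or 3 or hairpin 1 repeat 2 or 3 (adjusted p of 0.0644 to 0.0992).

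Among the 5 tested genes of the chromosomal passenger complex and the centromere, 2 rose with hairpin 2 (background 21.5%) and 5 with hairpin 1 (background 23.7%). Of these, Aurkb and Cenpe averaged below the tested level on the scrambled arrays and passed it only through the hairpin arrays, which favours a difference. Birc5, or survivin, which holds the passenger complex on the centromere, read 7.03, 6.84 and 6.95 with hairpin 2, 7.16, 7.51 and 6.94 with hairpin 1, and 5.99, 6.12 and 6.22 with the scrambled hairpin. All hairpin arrays were above all scrambled arrays. Birc5 rose by 0.83 with hairpin 2 (1.78-fold, limma adjusted p = 5.96e-05) and by 1.09 with hairpin 1 (2.13-fold, SE 0.123, adjusted p = 6.2e-06). Cenpa, the histone H3 variant that marks centromeres, read 7.05, 6.80 and 7.12 with hairpin 2, 7.33, 7.71 and 7.60 with hairpin 1, and 6.39, 6.65 and 6.89 with the scrambled hairpin. The hairpin 2 arrays overlapped the scrambled ones. Its change with hairpin 2 was 0.35 (adjusted p = 0.0506), and it rose by 0.90 with hairpin 1 (adjusted p = 7.65e-05). The Cenpa change with hairpin 2 passed without scrambled repeat 3, hairpin 1 repeat 1 or hairpin 2 repeat 2 (adjusted p of 0.0148 to 0.0365), and with robust eBayes, array quality weights and a fit of the 2 groups alone (0.041, 0.0164 and 0.0486). With probe sets averaged the rise with hairpin 1 was 0.39.

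Aurkb, the kinase of the passenger complex, rose by 0.48 with hairpin 2 and by 0.36 with hairpin 1. Cdca8, its borealin subunit, gave 0.22 with hairpin 2 (limma adjusted p = 0.0604) and rose by 0.72 with hairpin 1 (adjusted p = 1.22e-05). Cenpe, a kinetochore kinesin, gave 0.23 with hairpin 2 (adjusted p = 0.182) and rose by 0.38 with hairpin 1 (adjusted p = 0.0253), although its groups overlapped. Another Cenpe probe set, below the tested level, rose by 0.20 with each hairpin (adjusted p = 0.0333 and 0.0416 for hairpin 2 and hairpin 1). The hairpin 1 calls of Aurkb were lost without scrambled repeat 1 or 3 or hairpin 1 repeat 1 (adjusted p of 0.0652 to 0.0749), and those of Cenpe without scrambled repeat 1 or hairpin 1 repeat 2 (0.144 and 0.147). Cenpf, a large kinetochore protein gene below the tested level, gave 0.02 with hairpin 2 and 0.06 with hairpin 1. A further Cenpf probe set of similar signal (5.36) gave 0.17 with hairpin 2 (adjusted p = 0.161) and rose by 0.41 with hairpin 1 (adjusted p = 0.00193).

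The 10 genes of spindle motors, spindle assembly and cytokinesis had the lowest median change with hairpin 2 among the roles. Of them 2 rose with hairpin 2, close to the background share of 21.5%, at a median of 0.13, and 5 rose with hairpin 1 (background 23.7%), at a median of 0.33. Kif20a and Tpx2 averaged below the tested level on the scrambled arrays and passed it only through the hairpin arrays, which favours a difference. Racgap1, a subunit of the centralspindlin complex of cytokinesis, read 7.42, 6.96 and 7.16 with hairpin 2, 7.93, 8.09 and 8.10 with hairpin 1, and 7.18, 7.08 and 7.32 with the scrambled hairpin. The hairpin 1 arrays were above all others, and the hairpin 2 arrays spanned the scrambled ones. Its change was -0.01 with hairpin 2 (limma adjusted p = 0.959) and it rose by 0.85 with hairpin 1 (1.8-fold, SE 0.113, adjusted p = 3.21e-05), or by 0.39 with its probe sets averaged. Kif20a, a kinesin of the central spindle, read 5.82, 5.79 and 5.82 with hairpin 2, 6.34, 6.21 and 6.07 with hairpin 1, and 5.57, 5.58 and 5.56 with the scrambled hairpin. The groups did not overlap, but the levels lay close to the tested limit. Kif20a rose by 0.24 with hairpin 2 (adjusted p = 0.038) and by 0.64 with hairpin 1 (adjusted p = 3.15e-05).

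Prc1, which bundles microtubules of the central spindle, rose by 0.27 with hairpin 2 (limma adjusted p = 0.0366) and by 0.55 with hairpin 1. Nusap1, a spindle-associated protein, gave 0.22 with hairpin 2 and rose by 0.55 with hairpin 1, and Tpx2, an activator of Aurora A on the spindle, gave 0.13 and rose by 0.44. The kinesins Kif11, Kif2c and Kif4, the cytokinesis factor Ect2 and the spindle protein Hmmr passed the test with neither hairpin, with changes between -0.12 and 0.22. Further probe sets below the tested level did pass with hairpin 1. Those of Kif11 rose by 0.45 and 0.36 (adjusted p = 0.00123 and 0.00405) and that of Kif2c by 0.27 (0.0408), while that of Hmmr gave -0.34 (0.0217). A further Tpx2 probe set below that level rose with hairpin 2, by 0.35 (0.019), and gave 0.22 with hairpin 1 (0.143). The hairpin 2 calls of this group were fragile. That of Kif20a was lost without any 1 of the hairpin 2 or scrambled arrays (adjusted p of 0.068 to 0.0972), and that of Prc1 without scrambled repeat 1 or 2 or hairpin 2 repeat 1 or 3 (0.0776 to 0.173).

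Mki67 and Top2a, the proliferation antigen Ki-67 and the topoisomerase that untangles mitotic chromosomes, rose with each hairpin. Mki67 read 7.05, 6.93 and 7.05 with hairpin 2, 7.34, 8.12 and 7.89 with hairpin 1, and 6.56, 6.39 and 6.56 with the scrambled hairpin. The groups did not overlap, and hairpin 1 repeat 1 was well below the other hairpin 1 arrays. Mki67 rose by 0.51 with hairpin 2 (1.42-fold, SE 0.146, limma adjusted p = 0.0124, or 0.0548 without scrambled repeat 2) and by 1.28 with hairpin 1 (2.42-fold, adjusted p = 7.08e-06). Top2a read 8.28, 8.16 and 8.19 with hairpin 2, 8.65, 8.60 and 8.62 with hairpin 1, and 7.69, 7.31 and 7.64 with the scrambled hairpin. The groups did not overlap. Top2a rose by 0.66 with hairpin 2 (1.58-fold, adjusted p = 8.54e-05) and by 1.08 with hairpin 1 (2.11-fold, adjusted p = 9.11e-07). With all its probe sets averaged Top2a rose by 0.24 and 0.45 (hairpin 2 and hairpin 1). Another Top2a probe set above the tested level gave -0.07 with hairpin 2 (adjusted p = 0.747) and 0.21 with hairpin 1 (adjusted p = 0.218). Ncapg, a condensin subunit close to the tested limit, gave -0.22 and -0.09.

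**Figure D2:**
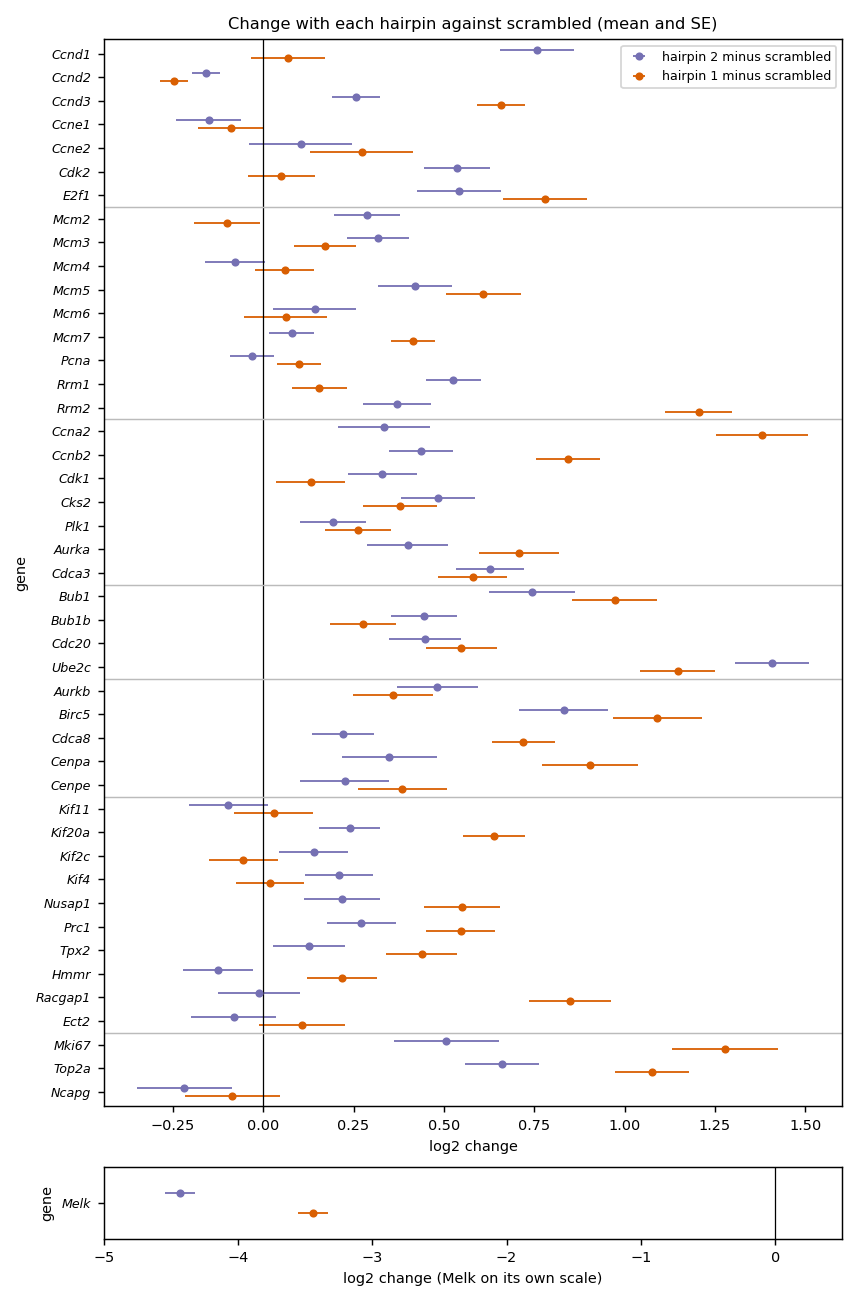
Points are log2 changes against the scrambled arrays and bars are SE (3 arrays per group), purple for hairpin 2 and orange for hairpin 1, for the 45 tested genes by role, with Melk on its own scale below. Most points lie between 0 and 1 log2 unit, Ube2c reaches 1.41 with hairpin 2, Ccna2 reaches 1.38 with hairpin 1, and Melk lies at -4.43 and -3.44.

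The hairpins were also compared directly, as hairpin 2 minus hairpin 1. Of the 45 genes without Melk, 4 were higher with hairpin 2 and 16 lower, against a background of 11.6% higher and 17.4% lower among all tested genes. The split was 7 higher and 13 lower after quantile normalization, and 6 and 14 with array medians made equal. The median difference was -0.16 log2 units, where all tested genes had -0.04. With no limit on the level, 4 of 47 were higher and 14 lower (background 7.72% and 11.4%). The genes higher with hairpin 2 were Ccnd1, Cdk2, Mcm2 and Rrm1, all of G1 and S phase. Of the 16 that were lower, 13 belonged to mitosis, from mitotic entry to cytokinesis, and the others were Ccnd3, Mcm7 and Rrm2.

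Among the genes set out by array above, the widest differences were in Ccna2, Melk, Racgap1 and Rrm2. Ccna2 averaged 7.30 with hairpin 2 and 8.34 with hairpin 1, a difference of -1.04 log2 units (2.06-fold, SE 0.127, limma adjusted p = 1.5e-05). Melk differed by -0.99 (adjusted p = 7.27e-06), with its hairpin 2 arrays near the array floor, so the size of that difference is compressed. Racgap1 differed by -0.86 (1.82-fold, adjusted p = 3.18e-05), Rrm2 by -0.83 (1.78-fold, adjusted p = 6.38e-06) and Mki67 by -0.77 (1.71-fold, adjusted p = 0.000882). For each of these 5, every hairpin 2 array lay below every hairpin 1 array. Ccna2, Melk, Racgap1 and Rrm2 were picked for the size of this difference, so the lack of overlap is no separate support. Its share over all genes was not computed. With all probe sets of a gene averaged the differences were smaller, at -0.66 for Ccna2, -0.32 for Racgap1, -0.49 for Rrm2, -0.30 for Cenpa and -0.21 for Top2a, and each still passed, while that of Ccnd3 was -0.19 and did not (adjusted p = 0.0867). These averages include the probe set used above. Above the tested level, another Ccna2 probe set gave -0.27 (limma adjusted p = 0.148) and another of Top2a -0.29 (adjusted p = 0.0987). The other Rrm2 probe sets gave -0.26 and -0.39 (adjusted p = 0.287 and 0.157). Further ones of Racgap1 and Cenpa lay below the tested level, and none of all these passed. In the other direction, Ccnd1 was 0.69 higher with hairpin 2 (1.61-fold, adjusted p = 9.86e-05) and Cdk2 0.49 higher (1.4-fold, adjusted p = 0.000901).

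Ube2c, Bub1, Cdc20 and Bub1b of the checkpoint and anaphase group did not pass the test between hairpins, with differences of 0.26, -0.23, -0.10 and 0.17 (SE 0.103, 0.118, 0.0984 and 0.0912). That of Ube2c passed after quantile normalization (0.31, adjusted p = 0.0223) and with equal array medians (0.29, adjusted p = 0.0346). Over the whole group of genes the calls depended partly on single arrays: 15 of the 20 held with each of the 9 arrays left out in turn. The Aurka call was lost without any scrambled array, hairpin 1 repeat 2 or hairpin 2 repeat 2 or 3 (adjusted p of 0.0616 to 0.234), and the Prc1 call in every such fit other than those without scrambled repeat 2 or hairpin 1 repeat 1 (0.0503 to 0.159). That of Tpx2 was lost without repeat 1 or 2 of either hairpin (0.0515 to 0.136), that of Nusap1 without hairpin 1 repeat 1 or hairpin 2 repeat 1 or 3 (0.0515 to 0.0933), and that of Hmmr without repeat 2 of either hairpin (0.0524 to 0.0764). A further Tpx2 probe set, below the tested level, gave a difference of the opposite sign (0.13, adjusted p = 0.462). The difference passed without hairpin 1 repeat 1 for Bub1 (adjusted p = 0.0315), without hairpin 1 repeat 2 for Ube2c (0.0395) and without hairpin 1 repeat 3 for Birc5 (0.0269). For E2f1 it was -0.40 with array quality weights (0.00317) and -0.25 with probe sets averaged (0.0262), and both passed. It passed as well without hairpin 1 repeat 2 for E2f1 (0.0279), Cdk1 (0.0263) and Ect2 (0.0333), without hairpin 1 repeat 1 for Pcna (0.00568) and without hairpin 2 repeat 3 for Kif2c (0.0261). Ebf1 itself was lower with hairpin 2 than with hairpin 1, by 0.50 log2 units (adjusted p = 0.00351).

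**Figure D3:**
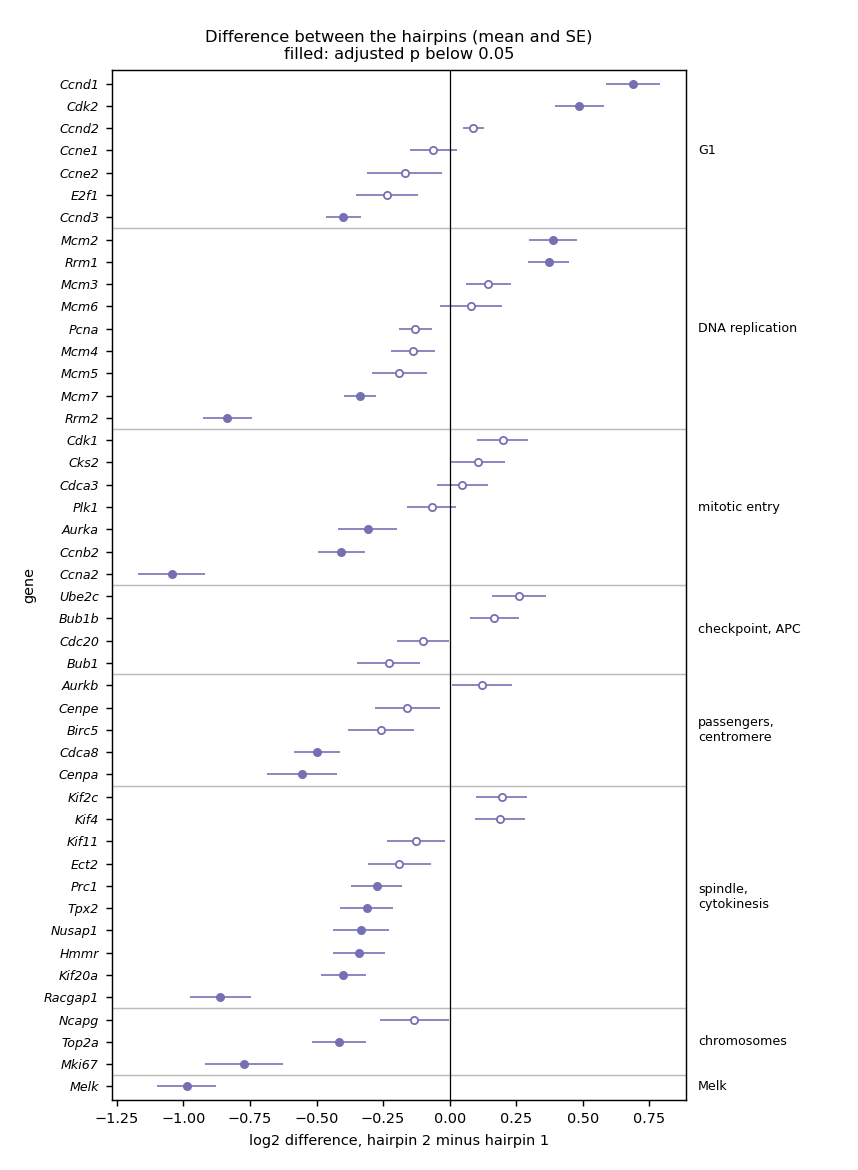
Points are log2 differences, hairpin 2 minus hairpin 1, with SE (3 arrays per group), by role, filled where the adjusted p was below 0.05. Filled points to the right of 0 are Ccnd1, Cdk2, Mcm2 and Rrm1, and filled points among the mitotic genes all lie to the left.

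**Figure D4:**
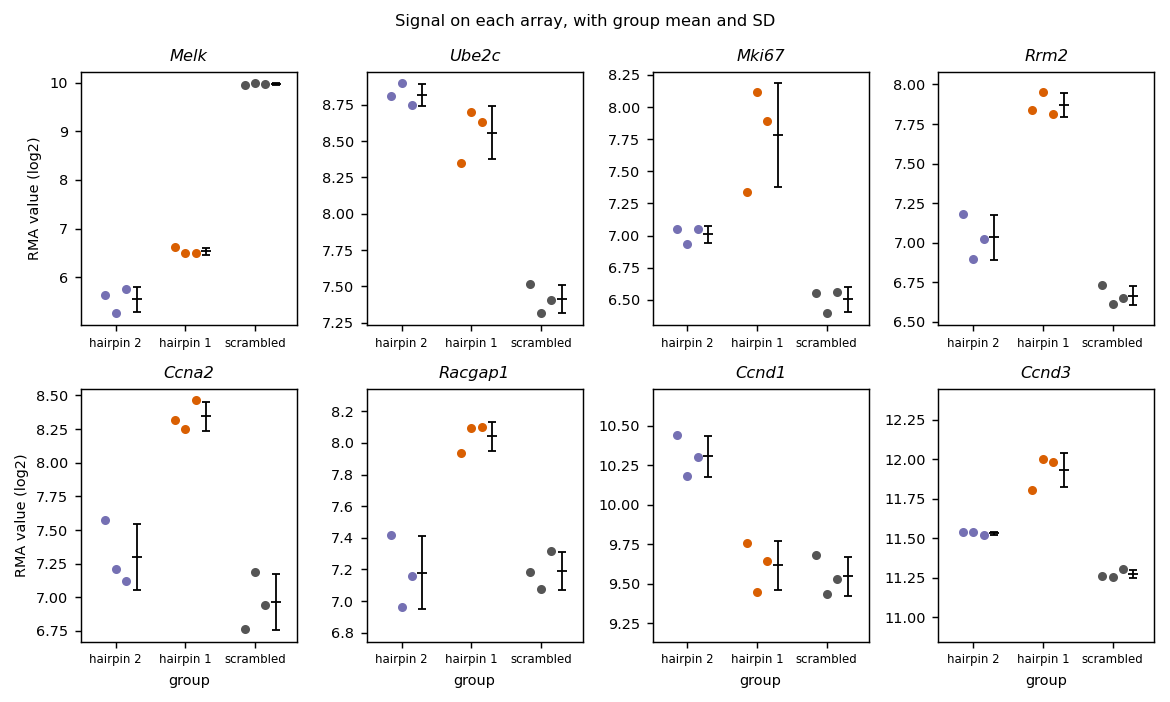
Dots are the log2 signal on each array, and the line and bars are the mean and SD of 3 arrays, for 8 genes, with the groups ordered hairpin 2, hairpin 1, scrambled and each panel on its own axis. Melk falls with each hairpin, Ube2c, Mki67 and Rrm2 rise with each, Ccna2 and Racgap1 stand out with hairpin 1, Ccnd1 with hairpin 2, and Ccnd3 is highest with hairpin 1.

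Further genes of the same processes were followed from lists. Of 45 other mitosis genes measured, 33 were tested. With hairpin 2, 12 were higher and 1 lower (median 0.20, background 21.5% and 13.3%). With hairpin 1, 15 were higher and none lower (median 0.25, background 23.7% and 9.23%). The largest was Stmn1, the microtubule-destabilising stathmin, which averaged 8.47 with hairpin 2, 9.18 with hairpin 1 and 7.27 with the scrambled hairpin. It rose by 1.21 with hairpin 2 (2.31-fold, limma adjusted p = 1.73e-07) and by 1.91 with hairpin 1 (3.77-fold, adjusted p = 1.9e-09). The chromokinesin Kif22 rose by 0.45 and 0.68, the centromere protein gene Cenpk by 0.42 and 0.67, and Cdca2, a chromatin-bound phosphatase partner, by 0.34 and 0.79 (hairpin 2 and hairpin 1). The 1 gene that fell with hairpin 2 was Anln, the cytokinetic scaffold anillin, by 0.30 (adjusted p = 0.00542).

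Of 35 other DNA replication genes measured, 33 were tested. With hairpin 2, 12 were higher and 3 lower (median 0.16, background 21.5% and 13.3%). With hairpin 1, 13 were higher and 1 lower (median 0.21, background 23.7% and 9.23%). Cdt1, which loads the MCM helicase onto origins, averaged 9.80 with hairpin 2, 9.38 with hairpin 1 and 8.49 with the scrambled hairpin. It rose by 1.32 (2.49-fold, limma adjusted p = 9.17e-09) and 0.90 (1.86-fold, adjusted p = 1.49e-06). Thymidine kinase Tk1 rose by 0.60 and 0.78, and Pole, the catalytic subunit of DNA polymerase epsilon, by 0.47 and 0.63. Gins1, Orc6 and Rpa1 fell with hairpin 2, by 0.32, 0.27 and 0.21. With hairpin 1 the gene that fell was Pola1, the catalytic subunit of DNA polymerase alpha, by 0.99 (1.99-fold, adjusted p = 1.5e-06), where hairpin 2 gave 0.11 (adjusted p = 0.444). The number changed with hairpin 1 was 9 without scrambled repeat 1 and 8 without hairpin 1 repeat 2.

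Of 16 tested regulators in the RB, E2F and DREAM group, none was higher and 3 were lower with hairpin 2 (background 21.5% and 13.3%), and 2 were higher and 1 lower with hairpin 1 (background 23.7% and 9.23%). With array quality weights 5 were higher and 5 lower with hairpin 1. With probe sets averaged, 3 were higher and 2 lower with hairpin 2. With hairpin 2 the falls were in E2f3 (-0.45, limma adjusted p = 0.00404), the pocket protein gene Rbl1 (-0.25, adjusted p = 0.0408) and the histone chaperone gene Rbbp4 (-0.12, adjusted p = 0.0286). With hairpin 1, Tfdp1, the dimer partner of E2F proteins, rose by 0.47 (adjusted p = 5.21e-05) and E2f6 by 0.36, and Rb1 fell by 0.34 (adjusted p = 0.0494). Lin9, a subunit of the MuvB complex, gave -0.24 with each hairpin and did not pass. The number changed with hairpin 2 was 1 without scrambled repeat 1 or 2 or hairpin 2 repeat 2 or 3, and that with hairpin 1 was 6 without hairpin 1 repeat 1.

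The cyclin-dependent kinase inhibitors and other CDKs went both ways, with 5 of 16 higher and 4 lower with hairpin 2 (background 21.5% and 13.3%). With hairpin 1, 3 were higher and 3 lower (background 23.7% and 9.23%), or 6 and 4 with array quality weights. Cdkn1a, which encodes the p53-responsive inhibitor p21, averaged 9.79 with hairpin 2, 10.73 with hairpin 1 and 10.97 with the scrambled hairpin. It fell by 1.18 with hairpin 2 (2.26-fold, limma adjusted p = 1.88e-08) and by 0.23 with hairpin 1 (adjusted p = 0.0448). Cdkn1b, encoding p27, gave -0.17 with hairpin 2 (adjusted p = 0.448) and fell by 0.70 with hairpin 1 (adjusted p = 0.0024). Of the Ink4 inhibitors, Cdkn2a fell by 0.49 with hairpin 2 and gave -0.20 with hairpin 1, Cdkn2b fell by 0.21 and gave -0.02, Cdkn2c rose by 0.22 and 0.33, and Cdkn2d gave -0.06 and 0.22 and passed with neither. Cdkn1c was below the tested level. Cdk4, the partner of the D-type cyclins, rose by 1.00 with hairpin 2 (adjusted p = 2.72e-07) and gave 0.14 with hairpin 1 (adjusted p = 0.27), and Cdk6 rose by 0.40 with hairpin 2 and fell by 0.34 with hairpin 1. Cdk5, which acts mainly outside the cell cycle, rose by 0.48 and 0.52.

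Other probe sets of the same genes were compared where the array has them. For this, all 34945 probe sets that name a single gene were fitted together, with no limit on the level. In that fit some calls given above were lost, such as those of Kif20a and Prc1 with hairpin 2 (limma adjusted p = 0.0549 and 0.0739). For 36 of the genes there were 71 further probe sets, 32 of them above the tested level. With hairpin 2, 23 lay beside a probe set that had changed, of which 21 had the same sign, 13 changed the same way and 0 the opposite way. Those of the other sign were for Ccnd3 and Top2a. With hairpin 1 the same counts were 21, 21, 16 and 0. Beside a probe set that had not changed, 3 of 9 further ones rose with hairpin 2, for Mcm7, Ccna2 and Cdca8 (0.31, adjusted p = 0.032), and 2 of 11 rose with hairpin 1, for Ccnd1 and Rrm1. The probe sets used for Rrm2, Mcm5, Aurkb and Ccne1 carry the suffix _x_at and those for Mcm2, Mcm3, Mcm7, Cdca8 and Prc1 the suffix _s_at, which mark probes that can match other transcripts, so their values are less certain.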

How the data were processed

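The deposited values are log2 signals, 1 per probe set and array, which the authors computed with RMA (background subtraction, equalization of arrays, summary of probes) per the submitters' processing notes. They state no version. Probe sets were named through the platform annotation. All 9 arrays were fitted by limma 3.58.1 under R 4.3.3, using lmFit and a trended eBayes, over 12735 genes, with contrasts of each hairpin against scrambled and of hairpin 2 against hairpin 1. P-values are two-sided and Benjamini-Hochberg adjusted over all genes tested, and below 0.05 counted as a change. Those of further probe sets come from a separate fit and are adjusted over its 34945 probe sets, with no limit on the level. SE is that of the fit. The chain was tested on simulated data. The number of arrays limits the precision.

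Values on every array are given for Melk, the 2 genes of each role with the largest mean absolute change, the 4 with the largest difference between hairpins, and the D-type cyclins. From each other list, 4 genes with the smallest p over both hairpins are named (1 is not reported here), and CDK inhibitors. Anln, Gins1, Orc6, Rpa1, Pola1, Rbbp4, E2f6, Rb1 and Cdk6 were named after their values were seen. No rule fixed which cell type markers are named singly. Members and lists were chosen with earlier results of these data known. Promoter letters were searched by exact match, with exact (Clopper-Pearson) intervals. Alternatives were other filters, normalizations, probe set summaries, variance models, a replicate block and leaving out each array.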

Additional observations from a re-analysis of the deposited data

Results flagged for a closer look

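The direct comparison of hairpin 2 with hairpin 1 gave a limma adjusted p below 0.05 for 21 of the 46 tested genes on the probe set used. Among all tested genes 11.6% were higher and 17.4% lower. All values are log2 differences, hairpin 2 minus hairpin 1. The genes that were higher with hairpin 2 were Ccnd1 0.69, Cdk2 0.49, Mcm2 0.39 and Rrm1 0.37. Lower among the genes of G1 and S phase were Ccnd3 -0.40, Mcm7 -0.34 and Rrm2 -0.83, and the Ccnd3 difference did not pass with its probe sets averaged (-0.19, adjusted p = 0.0867). Lower among the genes of mitotic entry, centromeres and chromosomes were Ccna2 -1.04, Ccnb2 -0.41, Aurka -0.31, Cdca8 -0.50, Cenpa -0.55, Mki67 -0.77 and Top2a -0.41. Lower among spindle and cytokinesis genes were Kif20a -0.40, Nusap1 -0.33, Prc1 -0.27, Tpx2 -0.31, Hmmr -0.34 and Racgap1 -0.86. Melk differed by -0.99. The part of the deeper loss of Ebf1 signal with hairpin 2 in these differences was not tested.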

How the results depend on the processing

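With 3 arrays per group, small changes and genes near the array floor are measured least surely, and repeats may be technical. With the limit for testing at the 50th percentile, fewer genes were tested (23 of the members besides Melk), and 15 members changed with hairpin 2, 12 with hairpin 1 and 9 between the hairpins, with medians of 0.27 for hairpin 1 and -0.061 between hairpins. Among the other mitosis genes 7 then changed with each hairpin, and 8 of the other replication genes with hairpin 1. With array quality weights, 10 of the RB, E2F and DREAM regulators and 10 of the CDK inhibitors and CDKs changed with hairpin 1, and 10 and 11 between hairpins, where the counts without weights were 3, 6, 6 and 7. The members' median with hairpin 1 was 0.35 with array weights, 0.35 after quantile normalization, 0.35 with equal array medians and 0.27 with all probe sets of a gene averaged. Averaging probe sets also gave a median of 0.23 with hairpin 2 and 6 other mitosis genes changed between hairpins. It gave 5 changed RB, E2F and DREAM regulators with hairpin 2, of which 3 were higher and 2 lower. Over all genes tested, quantile normalization gave 2454 higher and 1703 lower with hairpin 1, against 3023 and 1176 without it. The causes were not tested.

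Changes near 0 turned sign: Ccnd1 with hairpin 1 gave -0.0067 after quantile normalization and -0.0002 without hairpin 1 repeat 1, and Racgap1 with hairpin 2 gave 0.0691 with averaged probe sets, 0.0569 with array weights, 0.0512 without scrambled repeat 3 and 0.0981 without hairpin 2 repeat 2. With each array left out in turn, they ranged from -0.0002 to 0.1531 and from -0.1312 to 0.0981. Leaving out each array in turn gave 21 to 26 changed members with hairpin 2, 24 to 28 with hairpin 1 and 16 to 20 between hairpins, and medians of 0.26 to 0.33, 0.38 to 0.43 and -0.18 to -0.13. The same fits gave 8 to 17 other replication genes with hairpin 1, 1 to 4 RB, E2F and DREAM regulators with hairpin 2 and 2 to 6 with hairpin 1, and between hairpins 6 to 11 other mitosis genes, 3 to 6 RB, E2F and DREAM regulators and 4 to 9 CDK inhibitors and CDKs. Restricting promoters to the bases before the start lowered the share with TTTGAA to 26.8% and that with either CHR form to 43.9%, where all promoters gave 16.3% and 25.5%.

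The repeat numbers did not pair the arrays: deviations of same-numbered arrays correlated at -0.29 to 0.25, with 3 of 9 pairs above 0.1, and those of different numbers at -0.32 to 0.31, with 6 of 18. A fit with a replicate block called 25 members with hairpin 2, 27 with hairpin 1 and 19 between hairpins. Under the block, Cenpa passed with hairpin 2 (adjusted p = 0.0297) and Kif20a did not (adjusted p = 0.0547), and no other gene given by array changed its call.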
